A study of Mus musculus with 4 samples.

Results

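The 10 genes examined code for a ligand, receptors, transcription factors and feedback inhibitors of the FGF to ERK pathway: Fgf4, Fgfr1, Fgfr2, Spry2, Spry4, Dusp6, Etv4, Etv5, Spred1 and Spred2. They were named by symbol, and their contacts were every pair of anchors (genomic intervals between which ligated read pairs were counted) in which at least 1 anchor overlapped an annotated start site of the gene. Of the 10 genes, 9 had such an anchor, which gave 13 anchors and 989 pairs among the 1513030 pairs of the deposited table. Etv5, an ETS transcription factor gene on chromosome 16, had none, and the anchor nearest to its start sites lay 36671 bp away. The 989 pairs held 18052 counts, or 0.158% of all counts, and no pair belonged to more than 1 of the genes.

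The contacts come from HiChIP, in which DNA ends ligated together in fixed nuclei are enriched with an antibody, here against H3K27ac, the histone acetylation found at active promoters and enhancers. There were 4 libraries of mouse embryonic stem cells. B6 (C57BL/6J) was represented by lines B6 4-1 and B6 5-1, and D2 (DBA/2J) by lines D2 2-9 and D2 5-5, with 1 library from each line. No line carried a stated engineered allele, and all 4 lines were grown in serum medium with LIF, 3 µM CHIR99021 (an inhibitor of GSK3) and 1 µM PD0325901, an inhibitor of MEK, the kinase that activates ERK. No line grown without the MEK inhibitor was analysed here. In their library names D2 replicate 1 is marked 10cyc and the remaining 3 are marked 8cyc, with no meaning given, so this mark and that line cannot be told apart.

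FGF ligands bind receptor tyrosine kinases at the cell surface, which act through Ras, Raf, MEK and ERK on transcription factors such as those of the ETS family. ERK activity turns on its own inhibitors, among them the Sprouty and SPRED proteins, which act upstream near Ras and Raf, and DUSP6, a phosphatase that removes the activating phosphates from ERK. In embryonic stem cells the main ligand made by the cells themselves is FGF4, and inhibiting MEK holds the cells in the naive pluripotent state.

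Short sequences from the mouse reference genome (GRCm38, not read from these libraries) show what the anchors of 4 of these genes contain. The Fgf4 anchor, on chromosome 7 from 144844762 to 144876260, holds a Sox motif beside an octamer-like motif, the arrangement known from the Fgf4 enhancer that SOX2 and OCT4 bind together. This site is shown because it lies in the same anchor as the promoter, so a contact between these elements could not appear as a pair in this table. It was found at chr7:144864394-144864411, on the plus strand, in the untranslated part of an exon of Fgf4 and 3008 bp after the RefSeq start. Capitals mark the motifs, CTTTGT and ATGCTAAT.
Fgf4 enhancer site: CTTTGTttggATGCTAAT

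The promoters of Dusp6 and Spry2 are shown because they were the only ones, of 8 promoters from 7 of the 10 genes in the RefSeq table (GRCm38.p6), that held an octamer of the kind bound by CIC, a repressor that ERK signalling inactivates. Those of Fgf4 and Spred2 are shown for contrast, Spred2 being the gene with the most counts. Each sequence is the 250 bases before the RefSeq start, written 5′ to 3′ on the gene's own strand. Capitals mark an octamer (TGAATGAA, TGAATGGA, TCAATGAA or TCAATGGA, either strand) or a GC box (GGGCGG, either strand). The Dusp6 window is chr10:99262981-99263230 (plus strand), that of Spry2 chr14:105896820-105897069 (minus strand), that of Fgf4 chr7:144861136-144861385 (plus strand) and that of Spred2 chr11:19924192-19924441 (plus strand).
Dusp6 promoter: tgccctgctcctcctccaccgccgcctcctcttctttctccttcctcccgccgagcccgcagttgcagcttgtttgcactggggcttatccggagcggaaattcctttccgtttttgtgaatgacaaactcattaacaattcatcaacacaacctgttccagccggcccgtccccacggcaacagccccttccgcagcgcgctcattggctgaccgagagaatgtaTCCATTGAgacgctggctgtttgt
Spry2 promoter: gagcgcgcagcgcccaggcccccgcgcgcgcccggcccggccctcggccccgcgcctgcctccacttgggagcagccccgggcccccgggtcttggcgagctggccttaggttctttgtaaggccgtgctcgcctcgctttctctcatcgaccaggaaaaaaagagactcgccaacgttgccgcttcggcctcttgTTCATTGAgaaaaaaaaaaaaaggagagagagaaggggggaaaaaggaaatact
Fgf4 promoter: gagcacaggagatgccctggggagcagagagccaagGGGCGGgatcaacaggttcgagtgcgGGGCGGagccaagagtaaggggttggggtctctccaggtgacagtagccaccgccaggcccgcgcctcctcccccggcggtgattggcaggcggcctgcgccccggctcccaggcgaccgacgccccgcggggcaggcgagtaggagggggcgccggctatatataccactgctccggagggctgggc
Spred2 promoter: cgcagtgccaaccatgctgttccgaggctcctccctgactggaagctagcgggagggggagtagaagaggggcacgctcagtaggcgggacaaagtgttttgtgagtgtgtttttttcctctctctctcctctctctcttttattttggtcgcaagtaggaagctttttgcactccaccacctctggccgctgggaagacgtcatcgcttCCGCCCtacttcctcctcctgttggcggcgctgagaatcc

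In both promoters the octamer reads on the opposite strand, as TCCATTGA beginning 24 bases before the start of Dusp6 and TTCATTGA beginning 54 bases before the start of Spry2. Over all 32851 promoter windows of the table, 3.19% held 1 of these octamers. GC boxes stood in 4 of the 8 promoters, against 32.7% of all windows. The ETS motif CCGGAA, a stricter form of the GGAA core, was in 0 of the 8, against 12.03% of all windows. GGAA alone was not counted, and it occurs in the Dusp6, Spry2 and Spred2 windows shown. A run of Sox and octamer letters at most 5 bases apart, as in the Fgf4 site, occurred in 34 of 4504 windows of chromosome 7 as long as the Fgf4 anchor, or 0.755%. These are matches of letters, not measurements of binding.

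The libraries were of similar depth, with 2767882 to 2944258 counts each. Start sites of 8 of 10 embryonic stem cell markers had an anchor, with Esrrb and Tfcp2l1 the exceptions, and their summed level was 1967 to 2052 CPM (counts per 1000000 of the library) in B6 and 2008 to 2968 CPM in D2. D2 replicate 1 was highest, and of these markers Sox2 and Nanog passed the strain test, both higher in D2. Nanog stood at 980.5 CPM in D2 replicate 1 and 588.3 CPM in D2 replicate 2, against 496.2 and 518.4 CPM in B6. Pou5f1 and Klf4 went the other way without passing, with log2 fold changes of -0.24 and -0.31. The remaining markers tested were above 0 and did not pass. Of 8 fibroblast markers, 2 (Thy1 and Twist1) had an anchor, and their sum was 8.57 to 10.3 CPM in B6 and 4.70 to 9.17 CPM in D2, while Col1a1, Col1a2 and Col3a1 had no anchor. Endoderm markers (3 of 4 with an anchor) summed to 41.4 to 47.4 CPM in B6 and 44.1 to 45.9 CPM in D2, trophoblast markers (3 of 4) to 112 to 129 CPM and 106 to 118 CPM, and neural and mesoderm markers (4 of 4) to 87.3 to 90.0 CPM and 103 to 106 CPM. Their part in the results below was not tested.

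Start-site contacts were densest at Spred2 and sparsest at Fgfr2. Per kb of start-site anchor, Spred2 had 10.9 ± 0.51 CPM, Etv4 8.09 ± 0.55, Fgf4 7.92 ± 0.69 and Spry4 7.35 ± 0.58 (SD, n = 4 libraries). Fgfr1 followed at 6.01 ± 0.46, Spry2 at 4.17 ± 1.18, Dusp6 at 3.17 ± 0.63, Spred1 at 2.61 ± 0.49 and Fgfr2 at 2.40 ± 0.31 CPM per kb (SD, n = 4). Neighbours in this order overlapped in their ranges over the 4 libraries, except that Spred2 lay above Etv4 and Spry4 above Fgfr1 in every library. Among protein-coding genes with a start-site anchor, this density put Spred2 at percentile 82.7, Etv4 at 66.8, Fgf4 at 65.3 and Fgfr2 at 14.0. In such bulk libraries, fewer cells with a contact, fewer ligations per cell and less H3K27ac at an anchor cannot be told apart. This holds for differences between genes and between strains. CPM values here are counts over the library total.

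**Figure D1:**
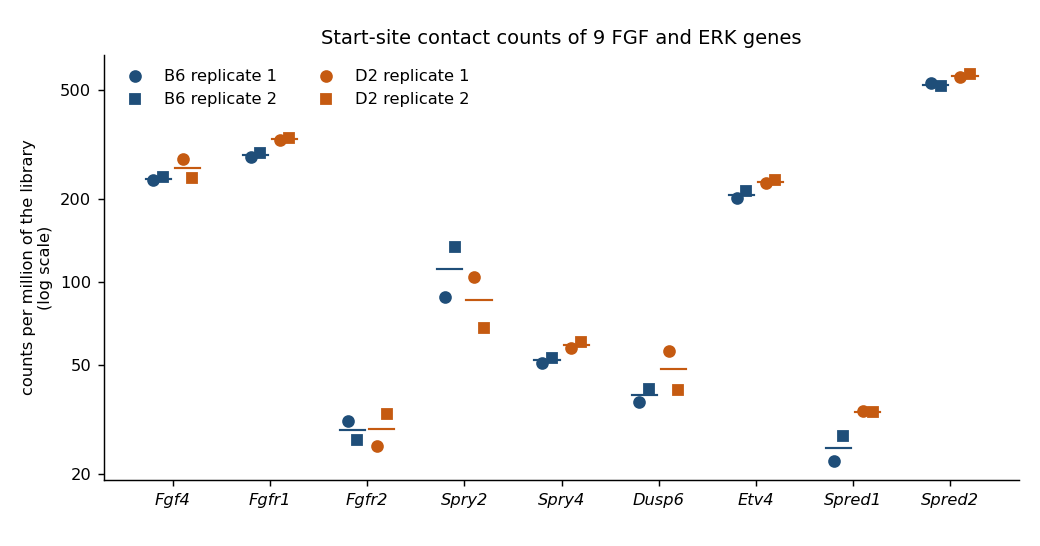
CPM of each library (y axis, log scale) at the start-site anchors of the 9 genes (x axis), with B6 in blue, D2 in orange, circles for replicate 1, squares for replicate 2 and short lines for strain means (n = 2). Both D2 libraries sit above both B6 libraries at Fgfr1, Spry4, Etv4, Spred1 and Spred2, and the B6 and D2 values of Spry2 overlap, from 68.3 to 134.6 CPM.

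Of the 9 genes, 0 passed the strain test at an adjusted p under 0.05 (edgeR's quasi-likelihood test, Benjamini-Hochberg adjustment over 13810 protein-coding genes), against 13.3% of all genes tested (3.53% higher and 9.78% lower in D2). At an unadjusted p under 0.05 there was 1, Spry2, against 25.3% of all genes, and DESeq2 called 0 and had 0 at that unadjusted level. The median log2 fold change of D2 over B6 was 0.09 over the 9 genes and 0.01 over all genes, and the values of the 9 ran from -0.44 to 0.37. In CPM on library totals, both D2 libraries lay above both B6 libraries for 5 of the 9 genes, against 34.1% of all genes. They lay below them for 0, against 22.3%. With library totals and no TMM factors the median of all genes was 0.08, and the split of called genes went from 488 higher and 1351 lower in D2 to 875 and 1084. The labels name the replicates of a strain as separate lines, and 2 against 2 libraries cannot give an exact permutation p below 0.33.

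Fgf4, the ligand gene, had 235.5 and 240.6 CPM in B6 replicates 1 and 2 and 281.8 and 239.4 CPM in D2 replicates 1 and 2. D2 replicate 1 was the highest and the other 3 were close together, so the strains overlapped. The log2 fold change was 0.06 (SE 0.12, adjusted p = 0.816), and without D2 replicate 1 it was -0.04. Its contacts were short, and 47.5% of counts in B6 and 52.8% in D2 (means of 2 libraries) lay under 50 kb.

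The partner with the most Fgf4 counts was an intergenic anchor 35.7 kb upstream (144819697 to 144829890), 8193 bp from Fgf3, a neighbouring FGF ligand gene. It had 114 counts in each B6 library and 139 and 135 in D2, with a log2 fold change of 0.20 (SE 0.23, adjusted p = 0.815). Both D2 libraries were above both B6 libraries, by less than the error of the fit. The start-site anchor of Fgf3 itself came second, 21.7 kb away, with 75 and 68 counts in B6 and 87 and 85 in D2. An intergenic anchor between them, 27.3 kb away, had 55, 38, 61 and 44 counts. These 3 neighbouring anchors on the Fgf3 side carried 35.7% of the counts at Fgf4 over the 4 libraries summed. On the other side the largest partner was distant, an intergenic anchor from 145126354 to 145150648 at 278.0 kb, with 37, 37, 49 and 29 counts. A nearer downstream partner was the start-site anchor of Fgf15, another FGF ligand gene, at 35.9 kb. It had 31 and 22 counts in B6 and 41 and 38 in D2, and its log2 fold change of 0.51 (SE 0.30) did not pass the test.

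**Figure D2:**
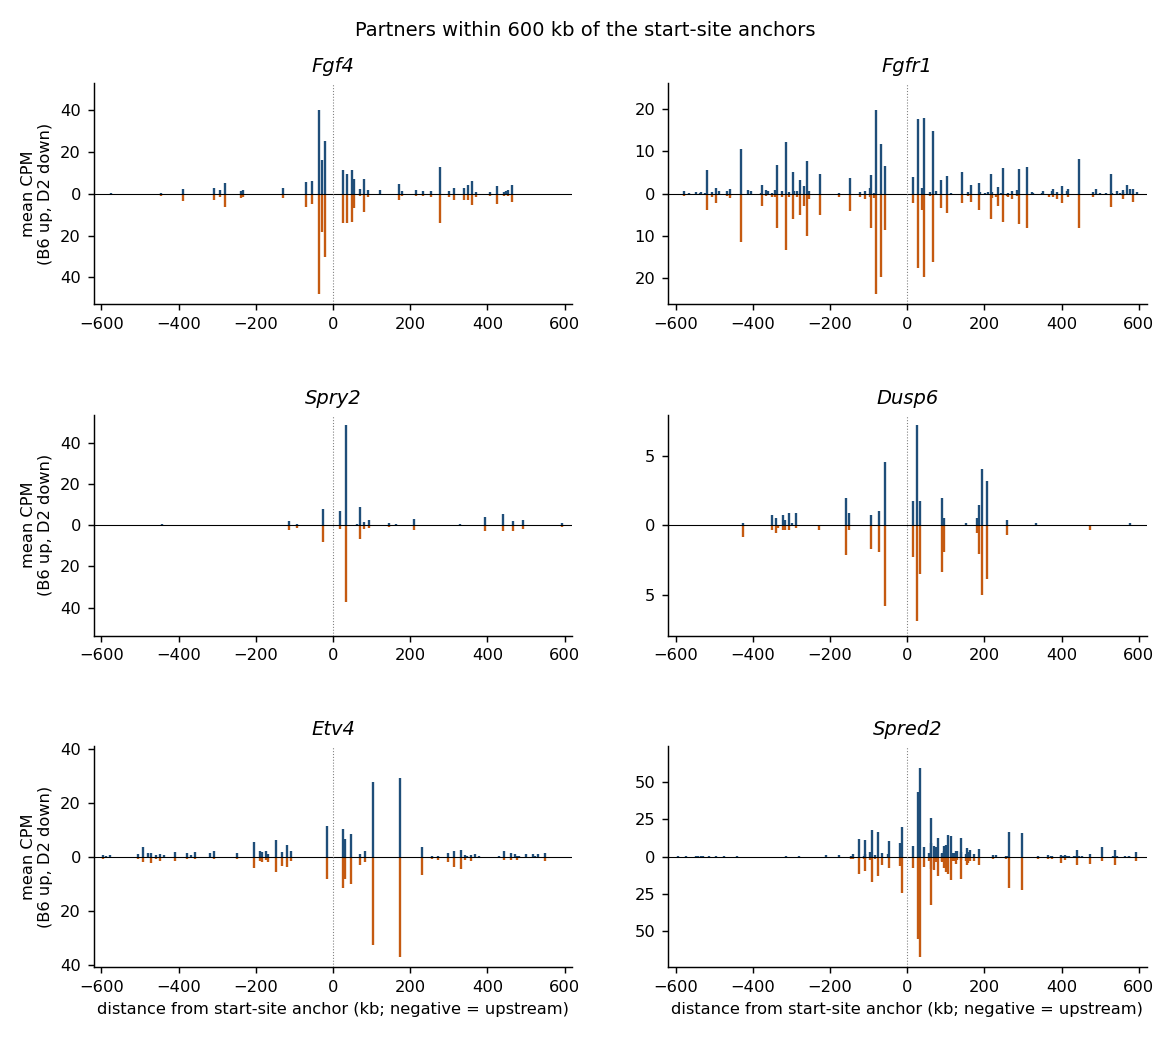
Mean CPM of each partner anchor (y axis, B6 upward in blue and D2 downward in orange, n = 2 libraries each) against its distance in kb from the start-site anchor (x axis, negative upstream), for 6 genes and partners within 600 kb. The tallest Fgf4 partners stand upstream at 21.7 to 35.7 kb, Spry2 has 1 tall partner at 34.1 kb downstream, and the tallest partners of Etv4 stand at 105.0 and 174.5 kb.

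Of the receptors, Fgfr1 was well covered and Fgfr2 barely. Fgfr1, on chromosome 8, had start sites in 2 anchors (25511094 to 25557095 and 25559349 to 25565058), and its 200 pairs gave 285.7 and 296.3 CPM in B6 and 328.0 and 333.9 CPM in D2. Each D2 library was above each B6 library, but the log2 fold change of 0.12 (SE 0.12, adjusted p = 0.593) did not pass the test. Its counts were spread over many partners, with the first 3 holding 18.8% over the 4 libraries summed. They also spread over long distances, with a median of 248.8 kb. The first partner was an anchor at the start sites of the unstudied genes Gm10689 and Gm45238, 81.1 kb upstream, with 63 and 50 counts in B6 and 65 and 71 in D2. An anchor at the 3′ end of Fgfr1 that also lies in Letm2, a gene for a mitochondrial protein, had 57, 46, 58 and 55 counts at 43.2 kb. The pair formed by the 2 Fgfr1 anchors themselves had 68, 34, 48 and 52 counts, with B6 replicates 1 and 2 as its extremes. An intergenic anchor 69.1 kb upstream stood apart by strain, with 30 and 37 counts in B6 and 56 and 56 in D2, yet its log2 fold change of 0.67 had an adjusted p of 0.262.

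Fgfr2, on chromosome 7, had 8 of its 14 annotated start sites in 3 small anchors, and the start of its gene record was in none. Its RefSeq promoter window (130266809 to 130267058) lay inside the anchor at 130261298 to 130268032, which held 6 start sites. The 119 pairs of Fgfr2 gave 31.3 and 26.8 CPM in B6 and 25.3 and 33.3 CPM in D2. The lowest and highest values were both from D2, and the log2 fold change was -0.05 (SE 0.21, adjusted p = 0.914). Single counts made up 51 of the 119 pairs, and 1 pair reached the 20 counts needed for a test. That pair joined the anchor at 130261298 to 130268032 to a place within the gene 11.8 kb away, with 6, 6, 10 and 8 counts. Its log2 fold change was 0.51 (SE 0.57, adjusted p = 0.810).

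Among the Sprouty genes, Spry2 on chromosome 14 showed the largest strain difference of the 9 genes, and its replicates also differed most. It had 88.7 and 134.6 CPM in B6 and 104.8 and 68.3 CPM in D2. B6 replicate 2 was the highest and D2 replicate 2 the lowest, with B6 replicate 1 below D2 replicate 1, so the strains overlapped. The log2 fold change was -0.44 (SE 0.16, adjusted p = 0.0693 by edgeR's quasi-likelihood test). By DESeq2's Wald test it was -0.43, with a larger SE of 0.41 and an adjusted p of 0.724. Leaving out D2 replicate 1 moved it to -0.76 (adjusted p = 1.19e-05) and leaving out B6 replicate 1 to -0.73 (adjusted p = 0.00494). Without B6 replicate 2 it was -0.10 and without D2 replicate 2 it was -0.17, so the call rested on which library was kept. With only the gene-record start sites of all genes in the fit, Spry2 had an adjusted p of 0.0151, and with only pairs at q under 0.01 in a library one of 0.0408.

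Spry2 contacts were concentrated on 1 partner. An anchor from 105849464 to 105872864, 34.1 kb downstream and over the start site of the non-coding gene Gm48970, took 42.8% ± 2.3 of its counts (SD, n = 4), a larger share than the first partner of any other of the 9 genes took of its own. It had 106 and 171 counts in B6 against 128 and 82 in D2, in the same order over the libraries as the gene's total. Its log2 fold change of -0.47 (SE 0.23, adjusted p = 0.389) did not pass the test, but without D2 replicate 1 it was -0.87 with an adjusted p of 0.0297. The second partner lay 26.2 kb upstream with 18, 26, 22 and 26 counts, and the third 71.1 kb downstream with 18, 31, 27 and 11. Without the first partner the gene still had 52.3 and 73.5 CPM in B6 and 58.5 and 40.4 CPM in D2, again overlapping. Only 12.8% ± 2.6 of its counts went upstream, the smallest such share of the 9 genes.

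The one pair of the 9 genes that passed the strain test joined the Spry2 anchor (105883393 to 105907151) to an intergenic anchor 19.6 kb downstream (105873389 to 105877966), next to the Gm48970 anchor. It had 13 and 26 counts in B6 and 2 and 8 in D2, or 6.88 ± 3.40 CPM against 1.72 ± 1.41 CPM (SD, n = 2). Both D2 libraries were below both B6 libraries. The log2 fold change was -2.01 (SE 0.49, adjusted p = 0.00678 over 108034 tested pairs, edgeR's quasi-likelihood test). The call was lost without B6 replicate 2 (-1.41, adjusted p = 0.603) and without D2 replicate 1 (-1.38, adjusted p = 0.376), and DESeq2 gave this pair no adjusted p. Its q-value, an unlabelled deposited value per library read here as one, was under 0.01 in 1 of the 4 libraries.

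All contacts of the partner anchor together, that pair included, had 45 and 55 counts in B6 and 10 and 24 in D2. Its counts with anchors other than Spry2's came to 32 and 29 for B6 and to 8 and 16 for D2. Both D2 libraries were thus below both B6 libraries with and without the Spry2 pair, and no test is given, since the anchor was singled out by the called pair. The Spry2 anchor itself had a log2 fold change of -0.32 (adjusted p = 0.311) in the test over 51820 anchors. Its counts are those of the gene, so this value differs from the gene's -0.44 only by the fit and its TMM factors.

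**Figure D3:**
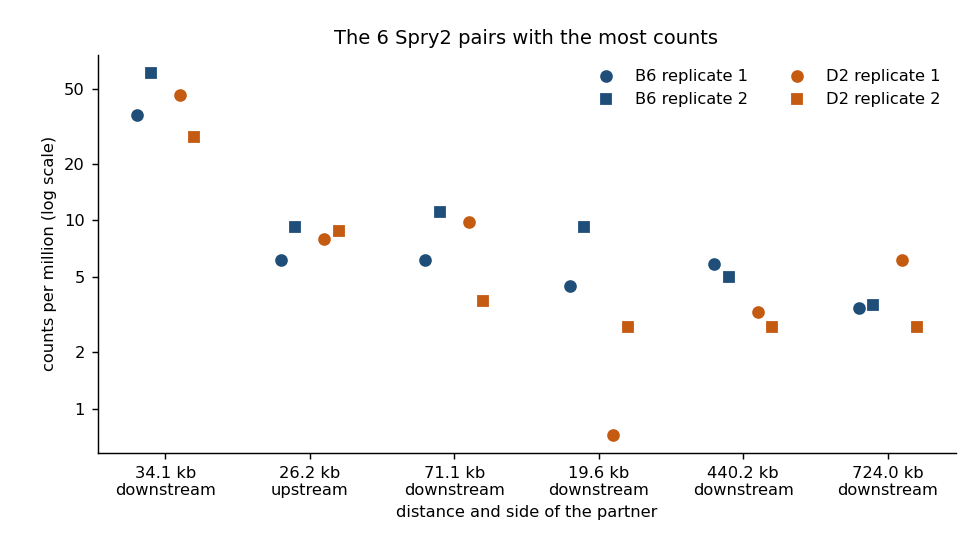
CPM of each library (y axis, log scale) for the 6 Spry2 pairs with the most counts, placed by partner distance in kb and side (x axis). B6 is blue, D2 orange, circles are replicate 1 and squares replicate 2, and the pair at 19.6 kb is the one that passed the test, with 13 and 26 counts in B6 and 2 and 8 in D2.

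Spry4, the other Sprouty gene, had 50.9 and 53.2 CPM in B6 and 57.4 and 60.8 CPM in D2 over 83 pairs. Both D2 libraries were above both B6 libraries, with a log2 fold change of 0.12 (SE 0.16, adjusted p = 0.710). Its first partners were an intergenic anchor 30.4 kb downstream with 24 and 21 counts in B6 and 24 and 23 in D2, and the start site of AC133601.1 at 30.0 kb upstream with 18, 27, 22 and 24. An anchor within the gene had 10, 13, 13 and 11 counts. None of these passed the strain test, the first having a log2 fold change of -0.01 (SE 0.34, adjusted p = 0.994).

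Dusp6, on chromosome 10, had 36.8 and 41.1 CPM in B6 and 56.4 and 40.4 CPM in D2. D2 replicate 1 was high and D2 replicate 2 lay between the B6 values. The log2 fold change was 0.24 (SE 0.18, adjusted p = 0.438), and without D2 replicate 1 it was 0.0048. Its largest partner was intergenic, 24.6 kb downstream, with 17 and 24 counts in B6 and 22 and 17 in D2. A second, 58.4 kb upstream and nearest to Poc1b, a centriole gene, had 13, 13, 21 and 12. The third, at the start sites of the unstudied genes Gm34983 and Gm35035 and 194.6 kb downstream, had 12 and 11 counts in B6 and 21 and 7 in D2, with both extremes in D2. Of the 9 genes Dusp6 sent the smallest share of its counts to other start-site anchors, 23.0% ± 1.7 (SD, n = 4), and 34 of its 42 pairs had a q-value under 0.01 in no library.

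The SPRED genes, which restrain Raf activation, differed widely from each other in coverage. Spred1, on chromosome 2, had 22.3 and 27.5 CPM in B6 and 34.0 and 33.6 CPM in D2. The D2 libraries agreed closely and lay above both B6 libraries, but the log2 fold change of 0.37 (SE 0.20) had an adjusted p of 0.250. Its contacts reached mostly upstream, 66.7% ± 4.1 of counts (SD, n = 4), the largest such share of the 9 genes. The first partner, at the start site of Gm29340 and 146.7 kb upstream, had 9 and 16 counts in B6 and 14 and 18 in D2. The second, intergenic at 176.2 kb, had 7, 9, 13 and 11, and the third, within the gene at 16.7 kb, had 10, 8, 9 and 7. Its first partner's log2 fold change was 0.28 (SE 0.42), and without B6 replicate 1 it was -0.10.

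Spred2, on chromosome 11, had the most counts of the 9 genes, at 530.2 and 515.9 CPM in B6 and 556.7 and 572.3 CPM in D2. Here too D2 lay above B6 without overlap, and the log2 fold change was 0.04 (SE 0.12, adjusted p = 0.876). Start sites lay in 2 anchors, 19915766 to 19935152 and 19943054 to 19973579, and the pair they form had the most counts of the gene, with 186 and 153 in B6 and 170 and 215 in D2 over 32.9 kb. An anchor within the gene (19976547 to 19994893) came next from both, with 129, 119, 163 and 152 counts from the nearer anchor and 73, 74, 102 and 81 from the farther. Pairs with a partner at its own start sites or within the gene were 13 of 205 and held 2363 of its 6213 counts, or 38.0%. The farthest of its first 5 partners, the promoter anchor of Rab1a and Cep68 at 296.3 kb, had 40 and 52 counts in B6 and 72 and 54 in D2. The 3 protein-coding genes whose log2 CPM over the 4 libraries lay nearest to that of Spred2 (Euclidean distance) were Igf2bp3 at 0.04, Lasp1 at 0.10 and Ntmt1 at 0.11.

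Etv4, an ETS transcription factor gene on chromosome 11, had 202.5 and 213.9 CPM in B6 and 229.8 and 235.0 CPM in D2. The D2 values were the higher ones without overlap, and the log2 fold change was 0.09 (SE 0.12, adjusted p = 0.703). Its contacts joined start sites to start sites more than those of the other 8 genes, with 74.4% ± 1.3 of counts (SD, n = 4) at a partner with a start site. Over all pairs with a protein-coding start-site anchor, 49.7% of counts joined start sites at both ends. Each pair counts once there and not once from each end, so that share is not a like measure for a single gene. The largest partner was a long anchor 174.5 kb downstream over the start sites of Nbr1, an autophagy receptor gene, Tmem106a and Rdm1, with 90 and 76 counts in B6 against 108 and 104 for D2. The log2 fold change here was 0.29 (SE 0.23, adjusted p = 0.711), a difference within the error of the fit although the strains did not overlap. The Arl4d anchor at 105.0 kb had 80, 78, 90 and 96 counts, and the Dhx8 anchor (an RNA helicase gene) at 26.4 kb had 37, 22, 28 and 39.

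Over all 9 genes, 174 pairs had the 20 counts needed for a test, and 1 passed, the Spry2 pair described above, against 1.43% of all tested pairs (0.472% higher and 0.956% lower in D2). At an unadjusted p under 0.05 there were 14, against 11.7% of all tested pairs, and DESeq2 called 0. Both D2 libraries lay above both B6 libraries in 46 of the 174, against 23.8% of all tested pairs, and below them in 28, against 17.9%. The median log2 fold change was 0.07, and 0.01 over all tested pairs. By gene it was lowest for Spry2, at -0.43 over 13 tested pairs of which 4 were above 0. It was 0.27 over the 9 pairs of Dusp6, of which 8 were above 0, and 0.28 over the 5 of Spred1, and the lone Fgfr2 pair stood at 0.51. The smallest adjusted p after the Spry2 pair was 0.0802, for a Spred2 contact with an anchor within Slc1a4, a neutral amino acid transporter gene, 397.6 kb downstream, with 4 and 2 counts in B6 and 16 and 9 in D2. That contact passed when D2 replicate 2 was left out, which made 2 calls. With library totals and no TMM factors the split of all called pairs went from 510 higher and 1033 lower in D2 to 685 and 861.

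**Figure D4:**
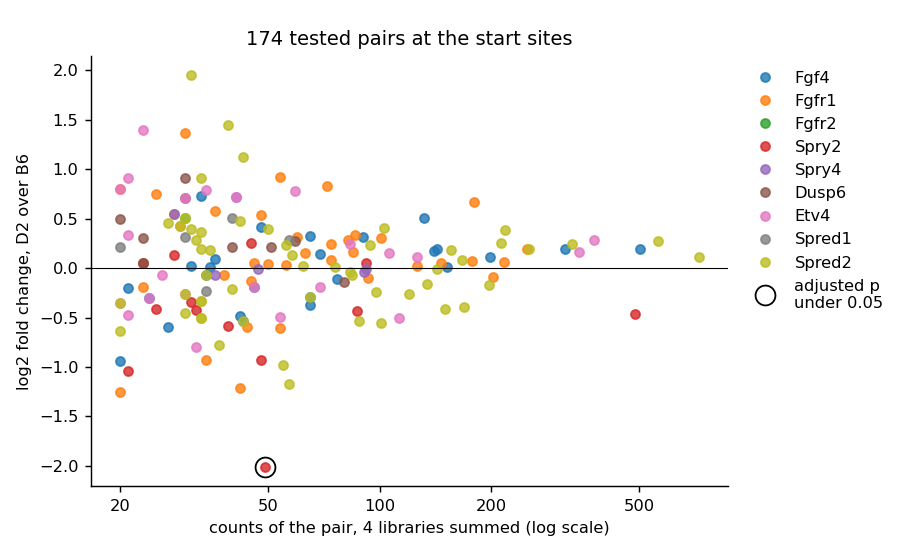
Log2 fold change of D2 over B6 (y axis) against the counts of the pair summed over 4 libraries (x axis, log scale) for the 174 tested pairs, coloured by gene. The ringed point is the Spry2 pair at -2.01, and the spread narrows as counts rise.

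The same comparison over the 13 start-site anchors gave 0 calls, against 9.77% of all 51820 tested anchors (2.68% higher and 7.1% lower in D2). At an unadjusted p under 0.05 there was 1 by edgeR, the Spred1 anchor (log2 fold change 0.48, SE 0.19, adjusted p = 0.108), against 21.9% of all anchors, and DESeq2 called 0. Both D2 libraries lay above both B6 libraries at 6 anchors, against 21.5% of all, and below them at 0, against 28% of all. The median log2 fold change was 0.20 over the 13 and 0.01 over all anchors. Fgf4, Spry2, Spry4, Dusp6, Etv4 and Spred1 have 1 anchor each, with the same counts as the gene. For these the anchor test is not a further measurement, and its values differ from the gene's by the fit and its TMM factors. Without D2 replicate 1 there was 1 call, the Spry2 anchor (lower in D2), and without D2 replicate 2 there was 1, the Dusp6 anchor (higher in D2).

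The deposited value taken here as a q-value was low in every library for a minority of the contacts. Of the 989 pairs, 474 had a q under 0.01 in at least 1 library, against 22.9% of all pairs in the table, and 125 in all 4, against 3.31%. Spred2 held 37 of the 125, Fgfr1 and Etv4 26 each, Fgf4 25, Spry2 8, Spry4 2 and Dusp6 1, and Fgfr2 and Spred1 had none. In both B6 libraries and neither D2 library there were 22 such pairs, against 0.906% of all pairs, and in both D2 libraries and neither B6 library 15, against 0.776%. Single counts made up 38.7% of all pairs in the table and 238 of the 989, so the sets are unlike in depth. These counts are a description, with no test.

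Contact distance differed widely between the genes. Over all 4 libraries the median count lay at 34.1 kb for Spry2, 48.3 kb for Fgf4, 77.3 kb for Spry4, 92.3 kb for Spred2 and 92.8 kb for Dusp6. It lay at 174.5 kb for Etv4, 176.2 kb for Spred1, 248.8 kb for Fgfr1 and 334.6 kb for Fgfr2, where that of all protein-coding start-site contacts was 116.2 kb. The medians of Spry2 and Etv4 were the distance of their first partner in each strain, 34.1 and 174.5 kb.

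**Figure D5:**
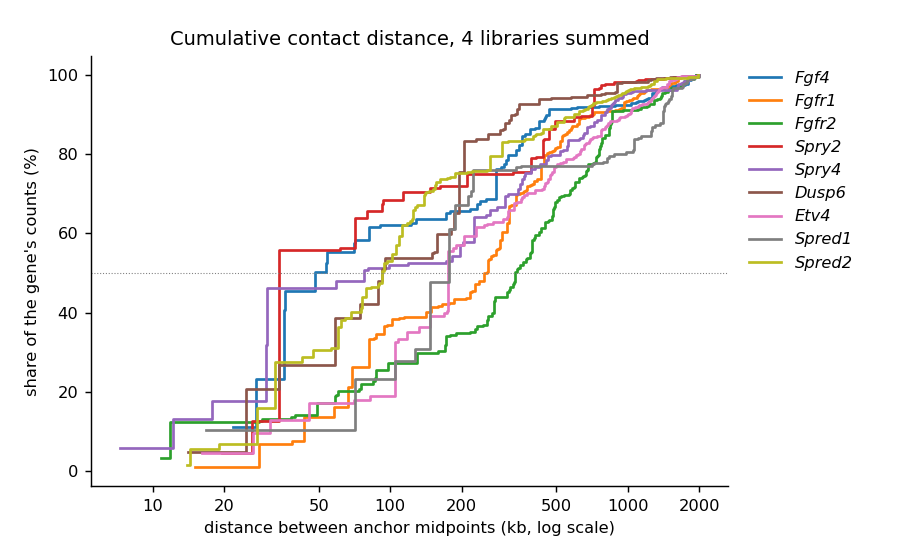
Share of each gene's counts in percent (y axis) within a given distance between anchor midpoints in kb (x axis, log scale), with the 4 libraries summed and 1 line per gene. The lines cross the dotted 50% level from 34.1 kb for Spry2 to 334.6 kb for Fgfr2, and tall steps are single partners that hold many counts.

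Pooled over the 9 genes, the median distance was 107.0 ± 2.4 kb in B6 and, for D2, 106.8 ± 2.6 kb (SD, n = 2), which differ by less than the spread between lines. By gene, both D2 libraries had a shorter median than both B6 libraries for 3 of the 9, Fgf4, Fgfr1 and Dusp6, against 20.9% of all protein-coding genes. With at least 2 counts per pair and library this was so for Fgf4 alone of the 9, against 16.2% of all protein-coding genes at that setting. For Fgf4 it was 54.1 ± 0.46 kb in B6 and 48.3 kb in both D2 libraries, for Fgfr1 258.5 kb in both B6 libraries and 242.4 ± 9.1 kb in D2, and for Dusp6 122.6 ± 38.9 kb and 91.0 ± 2.6 kb. Both D2 libraries had the longer median for 0 of the 9, against 5.57% of all genes. Over all protein-coding start-site contacts the median was 122.6 ± 1.4 kb in B6 and 110.4 ± 3.6 kb in D2 (SD, n = 2), also shorter in both D2 libraries. No test of these medians is given, since 2 against 2 libraries cannot reach an exact p below 0.33.

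Other genes of the pathway were taken from a list of 53, of which 47 had a start-site anchor and at least 20 counts. Of the 47, 2 rose and 6 fell in D2 by edgeR's quasi-likelihood test, against 13.3% of all genes called, and the median log2 fold change was 0.03. Library choice moved this count from 2 (without B6 replicate 1) to 13 (without D2 replicate 2), and DESeq2 called 3, Rps6ka1, Dusp4 and Elk3.

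Of the 3 FGF ligands tested, Fgf17 fell, from 150.3 and 138.9 CPM in B6 to 94.3 and 125.3 CPM in D2 (log2 fold change -0.46, adjusted p = 0.0180). The D2 libraries were both lower, but the adjusted p was above 0.05 without B6 replicate 1, B6 replicate 2 or D2 replicate 1. Fgf1, Fgf2 and Fgf8 had no start-site anchor. Of 3 further receptors and 8 adaptors and exchange factors, none passed.

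Among 5 kinases, Rps6ka1, for the ERK-activated kinase RSK1, fell from 675.6 and 580.2 CPM in B6 to 454.1 and 391.6 CPM in D2 (log2 fold change -0.64, adjusted p = 0.000192), with an adjusted p of 0.0579 without B6 replicate 1. With totals within each chromosome the Rps6ka1 log2 fold change shrank to -0.40 (adjusted p = 0.0206 by the same test). Map2k1 and Map2k2, which code for MEK, and Mapk3 did not pass, with log2 fold changes of -0.16, 0.10 and -0.05.

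Of 11 further inhibitors, 3 fell. Dusp4, for a nuclear phosphatase of ERK, went from 45.4 and 42.8 CPM in B6 to 24.6 and 27.5 CPM in D2 (log2 fold change -0.83, adjusted p = 0.00178), and passed under each alternative that was run. Spry1, a further Sprouty gene, went from 33.7 and 39.3 CPM to 27.8 and 23.8 CPM (log2 fold change -0.57, adjusted p = 0.0481), and did not pass with library totals alone (adjusted p = 0.0798), totals within chromosomes (0.0533), DESeq2's size factors (0.0501) or pairs at q under 0.01 (0.586), nor without B6 replicate 1, B6 replicate 2 or D2 replicate 2. Rasa1, for a Ras GTPase-activating protein, went from 23 and 20 counts to 8 and 9 (log2 fold change -1.39, adjusted p = 0.0174), and did not pass without B6 replicate 1, B6 replicate 2 or D2 replicate 1, nor with gene-record starts alone.

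Of 10 further transcription factor genes, 1 rose and 1 fell. Etv1, the third gene of the ETS subfamily that holds Etv4 and Etv5, rose from 18.6 and 25.7 CPM in B6 to 54.6 and 32.6 CPM in D2 (log2 fold change 0.90, adjusted p = 0.00344), with D2 replicate 1 far above the rest. Without D2 replicate 1 its log2 fold change was 0.51 (adjusted p = 0.168), and without B6 replicate 1 it was 0.67 (adjusted p = 0.144). Elk3, an ETS gene of another subfamily, fell from 80.1 and 91.8 CPM to 52.7 and 52.3 CPM (log2 fold change -0.78, adjusted p = 0.000237), and passed under each alternative that was run. Cic and Erf, which code for repressors that ERK inactivates, had no start-site anchor.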

How the data were processed

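H3K27ac HiChIP libraries of 2 B6 and 2 D2 embryonic stem cell lines were compared. The authors deposited raw read-pair counts per pair of anchors, without normalization, and each pair's distance. Files per library repeat the counts beside a value from 0 to 1, deposited without a header and taken here as the loop caller's q-value. HiC-Pro 2.11.4, DESeq2 and mm10 are named per the submitters' processing notes. The loop caller and its settings are not given in the sources used here. Every anchor began and ended at GATC, the DpnII site, in GRCm38, the C57BL/6J assembly. Whether D2 reads were aligned to it or to a D2 genome is not given in the sources used here. The table holds 19 autosomes.

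Start sites were those of every GENCODE M21 transcript. Counts were summed per gene over pairs with a start-site anchor, each pair once, and per anchor. Genes, pairs and anchors with at least 20 counts were fitted over the whole table with edgeR 4.0.16 (limma 3.58.1, R 4.3.3), TMM factors on library totals, with no term but strain, and p-values were Benjamini-Hochberg adjusted. SE is the log2 fold change over the root of the quasi-likelihood F. SDs of CPM use library totals alone. Read pairs without molecular identifiers are not independent molecules. The p-values rest on the spread between 2 lines per strain, which edgeR moderates toward the spread of all features fitted. They therefore do not measure the spread of a single gene or pair alone.

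The members and lists were chosen with earlier results of these data known. Named were all 10 genes, 3 first partners per gene by counts, pairs and anchors with adjusted p under 0.05, and pathway genes past that threshold. The Slc1a4 and 69.1 kb Fgfr1 pairs, the fourth Fgf4 partner, the Rab1a and Cep68 partner, and the pathway genes given without a call were chosen after their values were seen. The same holds for the Fgf15 partner of Fgf4 and for the stem cell markers given with values. Alternatives were other scaling, DESeq2 1.42.0, count minimums, a replicate block, leaving out each library, other start sites, distance and q-value limits. Sex chromosomes were not analysed here. Single results for some pathway genes are not reported here.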

Additional observations from a re-analysis of the deposited data

How the results depend on the processing

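The count of member genes called was 0 in the reported fit and 1 (Spry2) with gene-record starts or with pairs at q under 0.01, and 0 to 1 when single libraries were left out. Member pairs called went from 1 to 0 with a count minimum of 10 (45 of all pairs called), with none (759) and by DESeq2 (81), and 0 to 2 when single libraries were left out (324 to 2033 of all pairs). The Spry2 pair then had a log2 fold change of -1.97 and -1.93 at these count minimums (adjusted p = 0.348 and 0.385). DESeq2 called 767 of all genes and leaving out libraries 773 to 3273, beside 1839. Member anchors called stayed at 0 except for 0 to 1 on leaving out a library, while all anchors called were 5065, 2563 without a count minimum, 1307 by DESeq2 and 2555 to 7682 without single libraries. Other pathway genes called were 8, 3 by DESeq2 and 2 to 13 without single libraries. The pooled distance difference (D2 minus B6, -0.17 kb) was -5.17 kb with at least 2 counts per pair and -4.63 kb from 20 kb. The cause was not tested. The labels share replicate numbers between strains, but the lines differ and same-numbered deviations correlated at 0.03 over genes and -0.001 over pairs. With a replicate block the members' counts stayed at 0 genes, 1 pair and 0 anchors, and 2051 genes, 1335 pairs and 5913 anchors were called in all.

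Of 27 genes and pairs followed, 20 kept their direction under every alternative that gave an adjusted p. Fgfr2 was 0.0149 with library totals, 0.0616 with totals within chromosomes and -0.29 to 0.14 without single libraries. Fgf4 ran from -0.0422 to 0.16 without single libraries, and Spred2 was -0.0124 with pairs at q under 0.01. The first Spry4 pair was 0.0625 with library totals, 0.0374 and 0.0732 at count minimums of 10 and none, 0.00958 within chromosomes and -0.0782 to 0.0627 without single libraries. Without single libraries the first pairs ran from -0.40 to 0.15 for Dusp6, -0.10 to 0.77 for Spred1 and -0.0254 to 0.24 for Spred2. The cause of these changes was not tested. The SE of the fitted log2 fold change was 0.57 for the Fgfr2 pair of 30 counts and 0.22 for the first Spred2 pair of 724 counts.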
